A study of Mus musculus with 8 samples.

Results

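The cathepsins described here are 10 lysosomal protease genes of the mouse, Ctsz, Ctsb, Ctsd, Ctsl, Ctsc, Ctss, Ctsk, Ctsh, Ctsa and Ctsf. They were read as every probe set that the array's gene annotation gives to exactly 1 of them, 22 of the 45037 probe sets besides controls and 10 of the 18193 genes named. Total RNA of 4 SThdh7/7 and 4 SThdh111/111 samples was hybridised to Affymetrix mouse arrays, 1 array for each sample. Both are conditionally immortalised striatal cell lines from embryos of Huntingtin knock-in mice, homozygous for an Htt allele named after its run of glutamines, 7 or 111. Each group is a single line and both carry the immortalising transgene, so genotype and any other difference between the lines cannot be told apart. Nothing in the labels says that samples came from separate cultures, so the spread between them may be technical. The 10 genes were selected on the difference in intensity between these same 8 arrays. Their values are therefore a description: "called" means an adjusted p under 0.05 in limma's moderated test over all probe sets, and no p-value is given for a cathepsin.

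Cathepsins break down proteins in the acid interior of lysosomes. Most are cysteine proteases of the papain family, while Ctsd is an aspartic protease and Ctsa a serine carboxypeptidase. They are made as inactive precursors, carried to the lysosome largely on mannose 6-phosphate receptors and held in check outside it by cystatins. In the brain they serve neurons as well as microglia, and they have been studied in Huntington's disease as enzymes that can cleave huntingtin.

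Values are log2 of the deposited intensity. A floor marks where a probe set could not be told from background: 7.02 on that scale. It is the intensity below which 95% of the 27 control probe sets for bacterial genes fell on the array where that limit was highest. The limit ranged over 98.7 to 130.0 in SThdh7/7 and over 72.0 to 77.5 in SThdh111/111, a gap that touches dim probe sets only. SThdh7/7 samples 1 and 2 had median intensities of 173.9 and 174.0, against 136.2 to 147.0 on the other 6 arrays, and the cathepsin values were also computed without them. The ratio of 3' to 5' signal, a mark of RNA integrity, was 1.06 to 1.23 for actin in SThdh7/7 and 1.11 to 1.18 in SThdh111/111. In whole-culture RNA, fewer cells of a kind and less RNA per cell cannot be told apart. Levels of different genes are not compared, since probe sets differ in brightness at equal RNA.

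Of the 10 cathepsin genes, each read by its brightest probe set, 6 were called higher in SThdh111/111 and 1 lower. Over all 17389 named genes 29% were called, 13.1% higher and 15.9% lower. Of all probe sets called, 56.0% were lower, or 39.5% with arrays set to a common median. The rule used this contrast, so nothing is read from the cathepsins' count, their median or the separation of their arrays. Their median difference (SThdh111/111 minus SThdh7/7) was 0.89, against -0.09 over all named genes. The 4 arrays of one line lay wholly above those of the other for the same 7 genes, and this held for 14.3% of named genes upward and 17.3% downward. Ctsz and Ctsh were below the floor in SThdh7/7 and well above it in SThdh111/111. Ctsb, Ctsl, Ctsa and Ctsd were bright in both lines and higher in SThdh111/111. Ctsc was above the floor in SThdh7/7 alone. Ctss was below the floor on every array, and Ctsk and Ctsf had arrays on both sides of it in both lines.

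**Figure D1:**
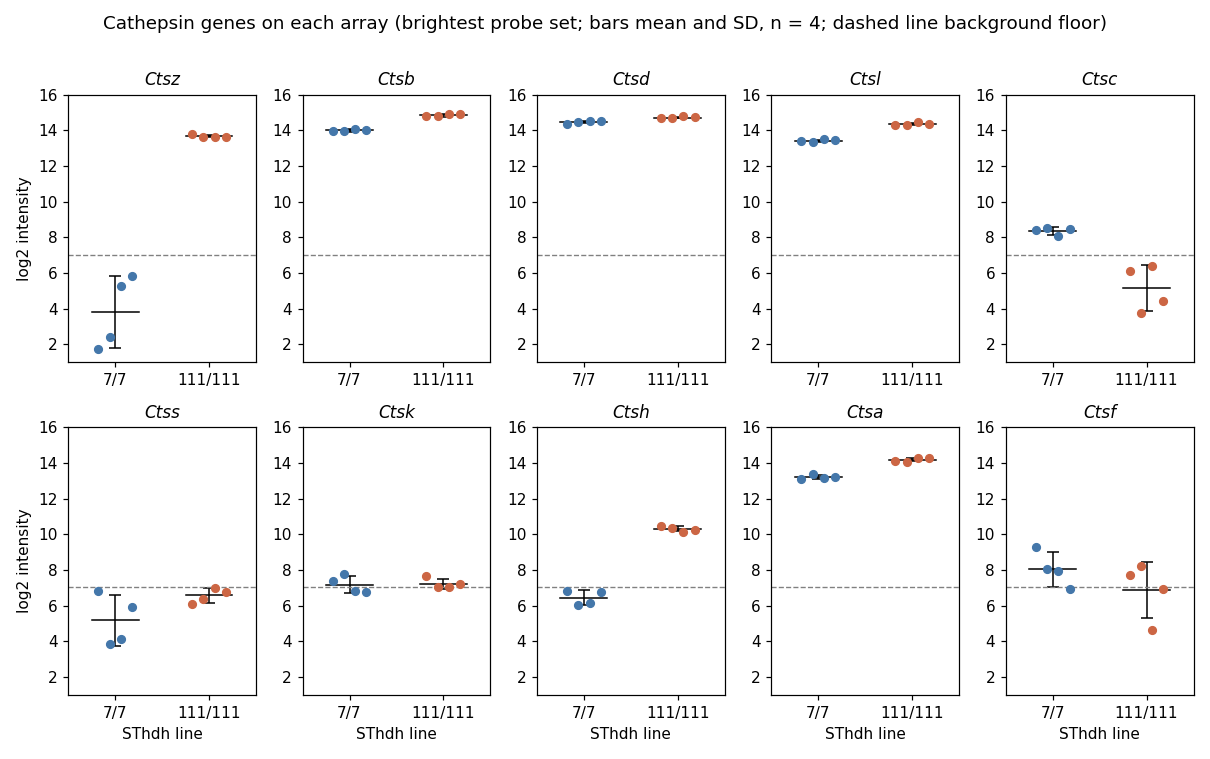
Log2 intensity (vertical axis) of the brightest probe set of each cathepsin gene on the 4 SThdh7/7 and 4 SThdh111/111 arrays. Points are arrays in the order of their sample numbers, black lines are means with SD, and the dashed line is the floor of 7.02. Ctsz and Ctsh cross the floor upward and Ctsc downward, while Ctsb, Ctsl, Ctsa and Ctsd shift by less than 1 with little spread.

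Ctsz encodes cathepsin Z, a carboxypeptidase that removes single residues from the end of proteins. On SThdh7/7 arrays it measured 1.75, 2.41, 5.27 and 5.85, all below the floor, and on SThdh111/111 arrays 13.77, 13.61, 13.65 and 13.65. The groups were 7.76 apart at their nearest arrays. Mean intensity in SThdh111/111 was 13000, and Ctsz was at least 100-fold higher there than the floor. The 2 other Ctsz probe sets stood apart in the same way, at 2.62 to 6.41 against 12.01 to 12.10, at least 32.8-fold, and at 2.67 to 5.72 against 12.42 to 12.52, at least 43.7-fold. The names of all 3 end in letters that the maker gives to probe sets whose probes can match several transcripts, and none ends in a plain _at. For the brightest, ending in _a_at, these can be transcripts of the same gene, so its letters alone do not show that it reads another gene.

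The RefSeq promoter of Ctsz is shown because its fitted difference was the largest of the 10. Promoter windows here are the 250 bases before an annotated start, from RefSeq on GRCm38.p6. They were searched on both strands for CACGTG, the E-box core that the lysosomal regulators TFEB, TFE3 and MITF can bind, for the longer TCACGTGA that contains it, for the GC box GGGCGG and for TATAAA. Of 32851 windows, 6.02% hold CACGTG, 0.785% TCACGTGA, 32.7% GGGCGG and 12.4% TATAAA. The Ctsz window, chr2:174439040-174439289 on the minus strand, is printed 5′ to 3′ and capitals would mark CACGTG or TCACGTGA.
Ctsz: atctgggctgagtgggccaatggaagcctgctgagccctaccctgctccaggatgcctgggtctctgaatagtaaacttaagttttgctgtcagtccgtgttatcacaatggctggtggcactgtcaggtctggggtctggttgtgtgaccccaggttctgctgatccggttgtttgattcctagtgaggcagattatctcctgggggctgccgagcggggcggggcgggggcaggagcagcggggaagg
It has neither, and holds overlapping GC boxes that begin 32 and 27 bases before the start. A match, or its absence, describes only the letters of the window.

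Ctsh encodes cathepsin H, an aminopeptidase. It measured 6.84, 6.01, 6.17 and 6.74 in SThdh7/7, below the floor, and 10.45, 10.38, 10.14 and 10.23 in SThdh111/111. The lines were 3.30 apart at their nearest arrays, and Ctsh was at least 9.70-fold higher in SThdh111/111 than the floor. A second Ctsh probe set read 7.28, 6.84, 5.01 and 1.94 against 9.60, 9.98, 9.70 and 9.81. In SThdh7/7 it passed the floor in sample 1 alone, and with the other 3 set to the floor its difference was at least 2.69 on the log2 scale.

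The 4 bright cathepsins were higher in SThdh111/111 by smaller steps that the narrow spread between arrays made visible. Ctsb encodes cathepsin B, which cuts both within proteins and at their ends. It measured 13.94, 13.95, 14.08 and 14.02 in SThdh7/7 and 14.78, 14.78, 14.91 and 14.90 in SThdh111/111, a difference of 0.85 ± 0.06 (SE), or 1.80-fold. Ctsl, for cathepsin L, a major lysosomal endopeptidase, measured 13.39, 13.34, 13.49 and 13.45 against 14.30, 14.29, 14.45 and 14.35. That difference was 0.93 ± 0.06 (SE), or 1.91-fold. No SThdh7/7 array reached the lowest SThdh111/111 array for either gene.

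Ctsa encodes the protective protein cathepsin A, which stabilises the lysosomal enzymes Glb1 and Neu1 besides acting as a carboxypeptidase. It measured 13.10, 13.39, 13.18 and 13.23 in SThdh7/7 and 14.13, 14.08, 14.25 and 14.27 in SThdh111/111, a difference of 0.96 ± 0.07 (SE), or 1.94-fold. Ctsd, for cathepsin D, the main aspartic protease of the lysosome, moved least. Its values were 14.37, 14.48, 14.53 and 14.52 against 14.68, 14.69, 14.78 and 14.72, only 0.15 apart at the nearest arrays. The difference was 0.24 ± 0.06 (SE), or 1.18-fold, and it rested on the scaling of the arrays: it was 0.02 and not called after quantile normalization. With arrays set to a common median, called centring here, it was 0.40 and not called. In both lines sample 3 had the highest reading of Ctsb, Ctsd and Ctsl.

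Probe sets of a gene did not all give the same answer. Of 5 Ctsb probe sets, 3 were called higher, with differences of 0.85, 1.04 and 1.25. Another, well above the floor, differed by -0.06 ± 0.14 (SE), from 8.82 ± 0.07 to 8.76 ± 0.24 (SD, n = 4), and the last passed the floor on 1 array of the 8. The second Ctsa probe set was likewise level, at 9.17 ± 0.45 and 9.19 ± 0.28 (SD, n = 4), so that the mean over both Ctsa probe sets differed by 0.49. Ctsl had a second probe set below the floor on every array, and Ctsd had none. In all, 21 of the 22 cathepsin probe sets passed the filter on low values, 11 of them called higher, 1 lower and 9 in neither direction. Over all probe sets 22.4% were called, 9.87% higher and 12.6% lower, and again nothing is read from the cathepsins' share.

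**Figure D2:**
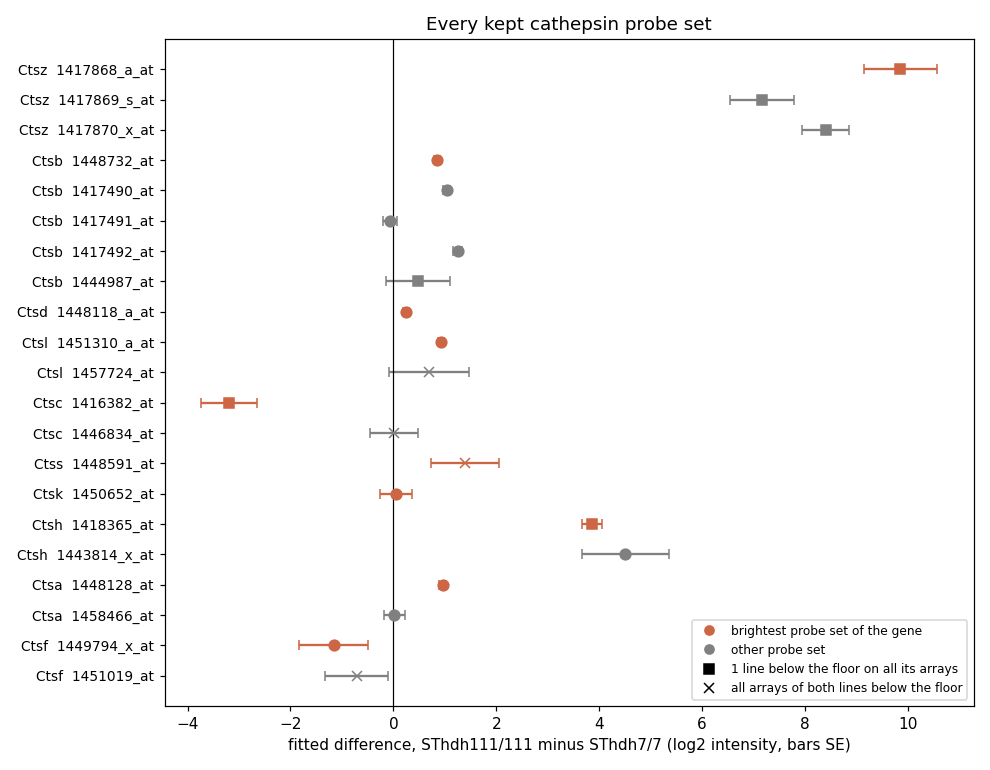
Fitted difference between the lines (SThdh111/111 minus SThdh7/7, log2 intensity, horizontal axis) with its SE for each of the 21 cathepsin probe sets kept. Orange marks the brightest probe set of a gene, squares a probe set with 1 line wholly below the floor and crosses one with both lines below it. The 3 Ctsz and both Ctsh probe sets lie far to the right, and Ctsb and Ctsa each have a probe set near 0 beside those that are higher.

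The promoter window of Ctsd is shown because it holds the E-box at more than 1 place. Capitals mark CACGTG, beginning 245 bases before the start, and TCACGTGA, beginning 99 bases before it, at chr7:142387828-142388077 on the minus strand of GRCm38.p6.
Ctsd: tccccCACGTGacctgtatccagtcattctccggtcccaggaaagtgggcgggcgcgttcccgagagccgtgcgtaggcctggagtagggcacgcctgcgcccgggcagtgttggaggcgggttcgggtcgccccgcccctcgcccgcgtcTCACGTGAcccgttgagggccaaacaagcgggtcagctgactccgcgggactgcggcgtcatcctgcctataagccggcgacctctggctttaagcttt
Ctsa has 2 annotated starts, and TCACGTGA begins 13 bases before the downstream one, whose window lies wholly inside the annotated span of the gene. The window of the upstream start has no CACGTG. The match lies within chr2:164833749-164833778 on the plus strand. Those 30 bases are printed with it in capitals.
Ctsa: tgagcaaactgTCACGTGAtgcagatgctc
The window of Ctsl, which also lies inside the annotated span of its gene, has CACGTG 236 bases before the start, and that of Ctsf has it 79 bases before. Windows were found for 8 of the 10 genes, and 4 of these 8 held CACGTG: Ctsd, Ctsa, Ctsl and Ctsf. Ctsz, Ctsc, Ctss and Ctsk did not. Whether the motif bears on any of these levels was not tested.

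Ctsc encodes cathepsin C, or dipeptidyl peptidase I, known for activating the granule proteases of immune cells. It measured 8.39, 8.55, 8.05 and 8.48 in SThdh7/7 and 6.11, 3.75, 6.41 and 4.45 in SThdh111/111. All 4 arrays of SThdh7/7 were above the floor and all 4 of SThdh111/111 below it, a fall of at least 2.54-fold. Both other Ctsc probe sets were below the floor on every array, and 1 of them did not pass the filter.

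The remaining cathepsins gave overlapping values. Ctss encodes cathepsin S, which trims the invariant chain of MHC class II molecules. It read 6.83, 3.87, 4.12 and 5.93 against 6.12, 6.38, 7.01 and 6.79, below the floor throughout, so no fold is given. That floor came from an SThdh7/7 array. Mean Ctss intensity in SThdh111/111 was 98.1, above the control limits of that line's own arrays (72.0 to 77.5). Sample 1 of that line, at a log2 of 6.12, was however below its own array's limit of 72.0. In SThdh7/7 mean Ctss intensity was 51.8, below the limits there (98.7 to 130.0). The Ctss difference was called without SThdh7/7 sample 1 (1.93) and in no other setting. Ctsk, for cathepsin K, the collagen-degrading protease of osteoclasts, read 7.37, 7.75, 6.82 and 6.75 against 7.64, 7.02, 7.02 and 7.19, on both sides of the floor. Its difference of 0.05 ± 0.31 (SE) took either sign when samples were left out. Ctsf, for cathepsin F, read 9.28, 8.05, 7.92 and 6.91 against 7.73, 8.21, 4.65 and 6.96. That difference of -1.16 ± 0.67 (SE) was not called, and it ranged from -1.60 to -0.41 with 1 sample left out. Its second probe set was below the floor on all arrays. On chromosome 3, Ctsk and Ctss are neighbouring protein-coding genes in RefSeq, and neither was called.

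Likeness to a gene was measured as the distance between log2 values centred on their mean over the 8 arrays, over the brightest probe set of each of the 17389 genes. The 3 nearest to Ctsz were decorin (Dcn, distance 3.90), the protease inhibitor gene Serpina3n (4.26) and the LIF receptor gene Lifr (4.30), all below the floor on every SThdh7/7 array. Nearest to Ctsc were the netrin receptor gene Unc5b (1.00), Emid1 (1.13) and Ctla2a (1.27). In SThdh111/111 Ctsc, Emid1 and Ctla2a were below the floor on all arrays and Unc5b on 2 of 4. All 6 distances therefore hold noise below the floor, and their order is not to be read. Ctla2a encodes a protein that resembles the propeptide of cathepsin L and inhibits cysteine cathepsins, and it is described with the inhibitors next.

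Of 17 inhibitor genes measured, 1 rose and 4 fell, 5.88% and 23.5%, against 13.1% and 15.9% over all named genes. On all arrays 7 were below the floor. Cystatin C (Cst3), the main secreted inhibitor of cysteine cathepsins, measured 13.31, 13.42, 13.63 and 13.46 in SThdh7/7 and 15.15, 15.27, 15.34 and 15.29 in SThdh111/111. It rose by 1.81 ± 0.07 (SE; limma adjusted p = 5.3e-10), and all 4 SThdh111/111 arrays were above all 4 of SThdh7/7. Cystatin B (Cstb), the inhibitor inside cells, went the other way: its level was 14.46 ± 0.09 in SThdh7/7 and 14.13 ± 0.06 in SThdh111/111 (SD, n = 4), a difference of -0.34 (limma adjusted p = 0.0012). That call was lost after centring of the arrays (difference -0.18) and in a fit without an intensity trend.

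Ctla2a and Ctla2b, a pair of mouse genes of this inhibitor type, were both above the floor on all SThdh7/7 arrays and below it on all SThdh111/111 arrays. Ctla2a went from 7.64 to 7.87 down to 2.72 to 5.48, a fall of at least 1.66-fold (limma adjusted p = 3.8e-04). Ctla2b went from 7.31 to 7.88 down to 5.84 to 6.93, at least 1.51-fold when measured from the floor (limma adjusted p = 0.017). Its values lay near the floor in both lines, so that bound rests on where the floor was set. The call of Ctla2b was lost after centring and without SThdh7/7 sample 3 (limma adjusted p = 0.052 and 0.057), and Ctla2b was named after its values were seen. Their sequences are close, so these probe sets may share signal. Serpinb6a, an intracellular serpin, also fell, by 0.54 on the log2 scale (limma adjusted p = 3.7e-05). The invariant chain gene Cd74, 1 form of which inhibits cathepsin L, differed by -0.20 ± 0.24 (SE; limma adjusted p = 0.65).

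**Figure D3:**
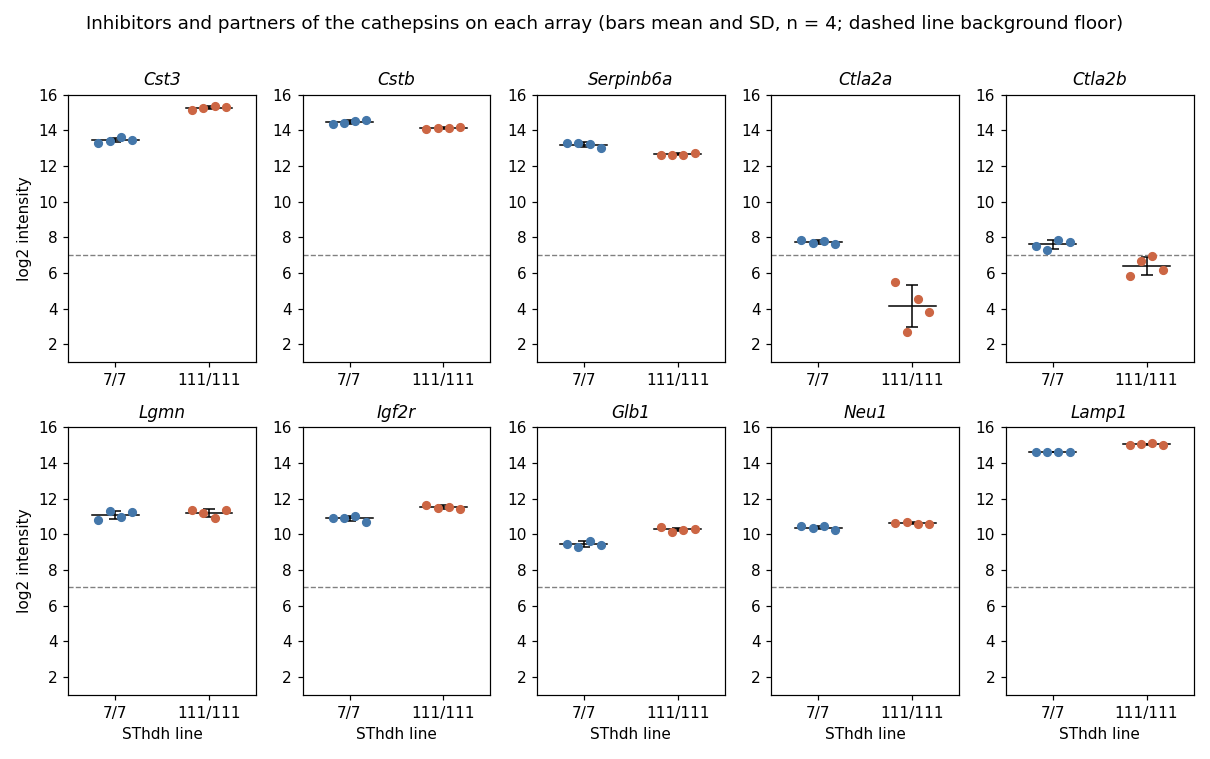
Log2 intensity (vertical axis) of inhibitors and partners of the cathepsins on each array, drawn as for the cathepsins, with the floor of 7.02 dashed. Cst3 shifts upward by 1.81, Cstb and Serpinb6a slightly downward, and Ctla2a and Ctla2b cross the floor downward.

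Of 23 genes for sorting to the lysosome and processing of its enzymes, 9 rose and 4 fell (median difference 0.11). That was 39.1% and 17.4%, against 13.1% and 15.9% over all named genes. The mannose 6-phosphate receptor gene Igf2r rose by 0.64 ± 0.09 (SE; limma adjusted p = 7.7e-05). The smaller receptor, M6pr, differed by 0.13 ± 0.06 (SE; limma adjusted p = 0.17). Tmem106b, a lysosomal membrane protein, rose by 1.20 ± 0.07 (SE), and Gga2, an adaptor for these receptors, by 0.64 ± 0.07 (SE). Sorl1, a sorting receptor, and Gnptab, the enzyme that begins the mannose 6-phosphate tag, fell by 1.80 and 0.80 on the log2 scale. Gnptab encodes only part of that enzyme, and Gnptg, the gene of its other subunit, rose by 1.09 ± 0.12 (SE; limma adjusted p = 1.7e-05), named here after its value was seen. Legumain (Lgmn), which cleaves the single-chain form of some cathepsins, was 11.08 ± 0.23 and 11.19 ± 0.22 (SD, n = 4), a difference of 0.11 ± 0.12 (SE; limma adjusted p = 0.60).

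Other lysosomal enzymes and cofactors rose more often than they fell, 16 of 34 higher and 3 lower (median difference 0.18). That was 47.1% and 8.82%, against 13.1% and 15.9% over all named genes. Npc2, the sterol carrier, rose by 1.01 ± 0.06 (SE) and the hexosaminidase gene Hexa by 0.88 ± 0.06 (SE). Of the partners of Ctsa, the beta-galactosidase gene Glb1 rose by 0.83 ± 0.10 (SE; limma adjusted p = 3.6e-05), with readings of 9.27 to 9.65 against 10.15 to 10.40. The neuraminidase gene Neu1 differed by 0.24 ± 0.08 (SE; limma adjusted p = 0.044), a call kept in 10 of 20 other settings. The galactosylceramidase gene Galc fell by 1.18 on the log2 scale, a call lost with the mean of its probe sets (-0.37). Man2b1, a mannosidase, fell by 0.30 on the log2 scale. Its call was lost after centring, without an intensity trend and without probe sets ending in _x_at, _s_at or _a_at.

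Lysosomal membrane proteins and proton pump subunits rose in 7 of 27 cases and fell in 4, but after quantile normalization 8 were lower. The main counts were 25.9% and 14.8%, against 13.1% and 15.9% over all named genes, so the share lower was near that background. Lamp1, the abundant membrane glycoprotein, rose by 0.44 ± 0.05 (SE; limma adjusted p = 3.6e-05), Lamp2 by 0.78 ± 0.07 (SE) and the pump subunit gene Atp6v0a1 by 1.27 ± 0.11 (SE). Ostm1, the partner of the lysosomal chloride transporter, fell by 0.60 on the log2 scale. The pump subunit gene Atp6v1d fell by 0.44 on the log2 scale, a call lost after centring. Among 13 regulators of lysosomal genes 2 rose and 2 fell, 15.4% each, near the shares over all named genes (13.1% and 15.9%). Tfeb itself was 8.05 ± 0.57 and 8.54 ± 0.44 (SD, n = 4), not called (limma adjusted p = 0.28). Tfe3 fell by 0.46 on the log2 scale, a call lost after centring and without SThdh7/7 samples 1 and 2. Rragd, a GTPase of the mTORC1 pathway, fell by 1.72 on the log2 scale, though its probe sets averaged gave -1.19 and no call, and Fnip2 rose by 0.84 ± 0.11 (SE). Flcn was higher by 0.52 ± 0.15 (SE), with overlapping arrays and a call kept in 9 of 20 other settings.

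Of 13 other cathepsin family genes measured, most of them placental or immune proteases, 0 rose and 2 fell by limma. The 2 were 15.4%, against 15.9% lower over all named genes. At an unadjusted p under 0.05 the counts were also 0 and 2, and 9 genes were below the floor on all arrays. Without probe sets ending in _x_at, _s_at or _a_at 1 was called higher. The aspartic protease gene Ctse measured 9.42 ± 0.10 in SThdh7/7 and 8.54 ± 0.18 in SThdh111/111 (SD, n = 4; limma adjusted p = 1.5e-04), but its other probe set differed by -0.25 and was not called. Ctsw passed the floor in 2 of the 4 SThdh7/7 samples and in 0 of SThdh111/111, and its call was lost without SThdh7/7 samples 1 and 2. Of 9 genes of the MHC class II pathway, in which Ctss acts, 2 rose (22.2%) and 0 fell by limma. Over all named genes 13.1% were higher and 15.9% lower. The counts were the same at an unadjusted p under 0.05, and 1 was called lower without SThdh7/7 sample 3. The 2 that rose were the lysosomal thiol reductase gene Ifi30 by 0.75 ± 0.09 (SE) and H2-Eb1 by 0.76 ± 0.12 (SE).

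Markers of other cell types were read beside the cathepsins. Of 19 macrophage, microglia and osteoclast markers 3 were called higher and 1 lower (15.8% and 5.26%, against 13.1% and 15.9% over all named genes). Those higher were Csf1r, from 8.84 ± 0.15 to 9.32 ± 0.11, Tmem119, from 9.99 ± 0.09 to 10.28 ± 0.06, and Cd14, from 8.99 ± 0.28 to 9.44 ± 0.04 (SD, n = 4). The call of Csf1r was lost when its probe sets were averaged (0.28). That of Tmem119 was lost without SThdh111/111 sample 3 (0.27) and without an intensity trend, where 1 of the 19 was called higher. Cd68, a lysosomal membrane glycoprotein of macrophages, fell by 1.75 on the log2 scale. These 4 genes, Laptm5 and Lyz2 were above the floor on all 8 arrays, while Ptprc, Itgam, Aif1 and Calcr were below it on all 8 and the other 9 lay on both sides. The summed intensity of the list was 4917 to 6633 in SThdh7/7 and 4652 to 5111 in SThdh111/111. Without Cd68, a sum added after its value was seen, it was 3426 to 5070 and 4104 to 4698, so the lines overlapped either way. The part of these markers in the cathepsin values was not tested. Of 15 fibroblast and mesenchymal markers, 11 (73.3%) were called higher and 0 lower by limma, against 13.1% and 15.9% over all named genes. At an unadjusted p under 0.05 also 0 were lower, and after quantile normalization 1 was. Their summed intensity was 66474 to 70222 in SThdh7/7 and 161900 to 179062 in SThdh111/111. Dcn was below the floor in SThdh7/7 and at least 162-fold above it in SThdh111/111, and Col1a2 rose by 4.34 ± 0.07 (SE), while Pdgfrb and Thy1 were not called. The part of this in the cathepsin values was not tested.

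Striatal neuron markers gave 2 higher and 2 lower of 16, 12.5% each, near the shares over all named genes (13.1% and 15.9%). Ppp1r1b, Drd1, Gad1 and Tubb3 were below the floor on all arrays of both lines, whereas Rgs9, Foxp1, Foxp2 and Map2 were above it on all 8. Penk, the enkephalin precursor gene, rose by 2.96 ± 0.35 (SE; limma adjusted p = 2.5e-05) and passed the floor in 1 of 4 SThdh7/7 samples and in all of SThdh111/111. Foxp1 was higher by 0.29 ± 0.08 (SE; limma adjusted p = 0.022), a call kept in 13 of 20 other settings, while Rgs9 fell by 0.71 and Map2 fell by 0.52 (log2). The call of Map2 was lost after centring (-0.36) and that of Rgs9 when its probe sets were averaged (-0.48). Drd2, Tac1, Pde10a and Bcl11b, among others, passed the floor on only some arrays of each line. The list thus held genes above background, below it and on both sides of it. Of 10 neural progenitor markers 2 were called higher and 4 lower, 20% and 40%. Dlx2, a homeobox gene of the ventral forebrain, rose by 1.86 ± 0.38 (SE; limma adjusted p = 0.0027) and Sox9 by 1.25 ± 0.23 (SE; limma adjusted p = 0.0011). Pax6, a progenitor transcription factor, was at least 6.96-fold lower in SThdh111/111, while Hes1 fell by 2.12, Sox2 fell by 2.06 and Nes fell by 1.38 (log2). Vim was 15.50 ± 0.10 and 15.50 ± 0.05 (SD, n = 4), and Fabp7 and Hes5 were below the floor on all arrays. All these lists, the cathepsins included, were chosen with earlier results known, and no list was tested as a set.

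**Figure D4:**
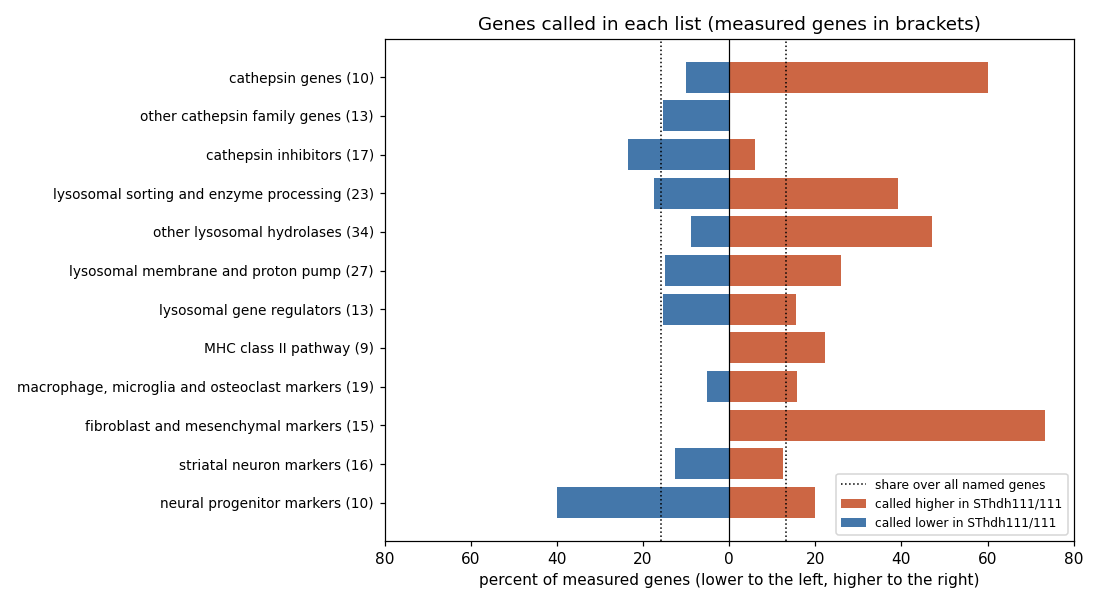
Percent of the measured genes of each list called higher (right) and called lower (left) in SThdh111/111, with the number measured in brackets. Dotted lines give the shares over all named genes, 13.1% higher and 15.9% lower. The cathepsins were selected on this same contrast, so their bar is not read against the dotted lines or the other lists. Of the other lists, fibroblast markers and other lysosomal hydrolases have the longest bars to the right.

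Across 20 other settings, the calls of Ctsb, Ctsh, Ctsa and Ctsc were kept in all, and that of Ctsz in the 19 that could measure it. Without SThdh7/7 samples 1 and 2 the count of cathepsins called was again 6 higher and 1 lower. The sizes for Ctsb, Ctsl and Ctsa moved with the scaling of the arrays, though their calls were kept. After quantile normalization they differed by 0.59, 0.69 and 0.74, and after centring by 1, 1.08 and 1.11. The sizes for Ctsz and Ctsc depended on how values below the floor were treated. With such values set to the floor, Ctsz differed by 6.64 in place of a fitted 9.85, and Ctsc by -1.35 in place of -3.19.

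**Figure D5:**
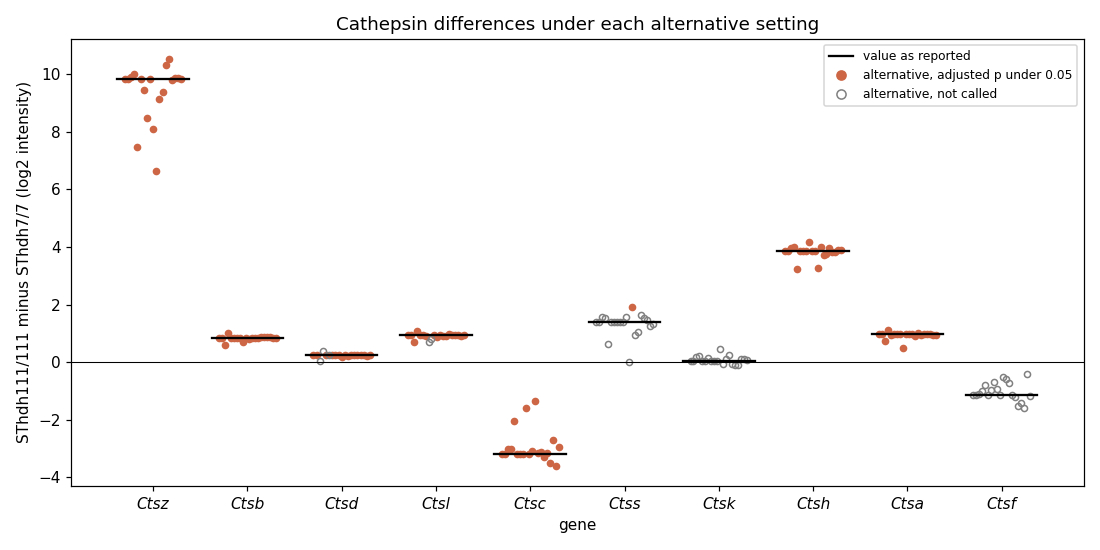
Difference between the lines (SThdh111/111 minus SThdh7/7, log2 intensity, vertical axis) of each cathepsin gene under each alternative setting. Black lines are the values as reported, filled points are alternatives with an adjusted p under 0.05 and open points those without. Ctsz and Ctsc spread widely without changing sign, and Ctsd has open points among small differences.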

How the data were processed

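The authors deposited 1 linear intensity per probe set and array. Per the submitters' processing notes GCRMA was used. Each array's mean over probe sets, with 2% trimmed at each end, was however 500.0, and which program made the values stays unknown. The design allowed for log2 of linear values, which was taken. The number of arrays limits the precision.

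Probe sets with a log2 of at least 4 on at least 4 of 8 arrays were kept, 41409. Names came from the platform's annotation (34945 probe sets with 1 gene, 932 with several, 9160 with none), with symbols updated through Entrez numbers to GRCm38.p6. A gene was read by its brightest kept probe set. The difference between lines was tested by limma 3.58.1 under R 4.3.3 (lmFit, then eBayes with trend), two-sided, with Benjamini-Hochberg adjustment over kept probe sets. The script was tested on simulated data.

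The 10 members and the 11 other lists were chosen with earlier results of these data known. Named genes were all members, 10 fixed partners, up to 2 called genes of each list and direction with the lowest adjusted p, and 3 genes most like Ctsz and Ctsc; cell type lists are named by defining markers. The floor, and setting values to it, were chosen after the data were seen.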

Additional observations from a re-analysis of the deposited data

Results flagged for a closer look

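Of 132 groups of 4 arrays examined (66 probe sets of cathepsins, partners and named list genes in each line), 4 had 1 sample farther from the rest than Dixon's test allows, and chance gives about 1 in 20. None of the 42 groups of cathepsin probe sets was among them. Serpinb6a read 13.03 on SThdh7/7 sample 4, against 13.24 to 13.28 on the others, and 12.74 on SThdh111/111 sample 4, against 12.62 to 12.64. Sorl1 read 8.77 on SThdh111/111 sample 4, against 8.44 to 8.48. Gnptab read 9.45 on SThdh7/7 sample 3, against 9.81 to 9.84.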

How the results depend on the processing

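Calls over all probe sets numbered 9288, 56.0% of them lower, and centring of the arrays left 7022, 39.5% of them lower, with a median difference of 0.04 in place of -0.12. Centring also reduced the genes called lower from 4 to 2 among inhibitors and among sorting genes, from 3 to 1 among hydrolases and from 4 to 1 among membrane and pump genes. Leaving out probe sets ending in _x_at, _s_at or _a_at left 6132 calls and 3 cathepsins called higher of 8 measured. Every probe set of Ctsz and Ctsd has such an ending, and the remaining one of Ctsl was dim (difference 0.69, not called). The mean of its probe sets also ended the call of Ctsl (0.81), and fitting without an intensity trend ended that of Ctsd. With 1 sample left out, 8115 to 8754 probe sets and 6 to 7 cathepsins higher were called, 1 was called lower, and the median difference was 0.86 to 0.91. Ctsk changed sign, to -0.07, when dimmer values were raised to the floor, and ranged from -0.09 to 0.24 with 1 sample left out. Sample numbers are shared by the lines but same-numbered samples correlated at -0.01 to 0.01, so they were not taken as pairs. With the number as a replicate block, 8828 probe sets were called, 55.2% of them lower, with 6 cathepsins higher and 1 lower and a median of 0.89, and Neu1 lost its call (limma adjusted p = 0.07). Dim probe sets, Ctss, Ctsk and Ctsf among them, are measured too noisily here for a missing call to say that they did not differ.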
